A study of Mus musculus with 12 samples.

Results

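The Notch pathway was described here through 10 of its genes in the adult mouse cochlea: the ligands Jag1, Jag2 and Dll1, the receptors Notch1, Notch2 and Notch3, and the target genes Hes1, Hes5, Hey1 and Hey2. They were chosen by name, and every non-control array probe listed under one of these gene names was taken, which gave 178 of the 165865 probes kept and 10 of the 19505 genes measured. RNA was taken from male C57BL/6 mice of 6 weeks, with no treatment and no transgene named in the labels. The cochleae of 4 mice were cut into the apical, middle and basal turns, which sense low, intermediate and high tones, and 4 samples of each of these 3 turns were hybridized to 12 one-color exon arrays. Each sample mixed the spiral ganglion neurons, organ of Corti and lateral wall tissue of its turn, so the values are averages over many cell types, and fewer cells of a type and less RNA per cell cannot be told apart. All 4 arrays of a turn lay on 1 slide, so a difference between turns and a difference between slides cannot be told apart.

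Notch receptors span the cell membrane and are activated by Jagged or Delta ligands on a neighboring cell. Proteases then free the inner part of the receptor, which enters the nucleus, joins the DNA-binding protein RBPJ and turns on repressors of the Hes and Hey families. In the developing organ of Corti this exchange sets apart hair cells from the supporting cells around them, and Jag1 also marks the region from which both arise.

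Signals are fluorescence values scaled so that the 75th percentile of every array is the same, and the value of a gene is the mean over its probes on the log2 scale. Between 77.4% and 81.4% of the spots of an array were well above background and no spot was saturated. Replicate arrays varied by a median SD per gene of 0.106 (apical), 0.126 (middle) and 0.115 (basal) on the log2 scale. Levels were compared only within a gene, because probes differ in brightness. A gene was called different when the adjusted p of the contrast in limma, with Benjamini-Hochberg adjustment over all 19505 genes, was under 0.05. All tests were two-sided, and their p-values rest on the spread between these samples. Cell type markers were taken from lists chosen for this report. Probes well above background were found for 5 of 6 hair cell markers and all 6 markers of organ of Corti supporting cells. They were also found for all 6 markers of spiral ganglion neurons and all 4 of strial marginal cells, but not for the hair cell marker Atoh1. In mixed tissue the signal of a marker does not by itself place it in that cell type.

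The array reads each gene through probes of 60 bases placed along its exons. The probes below show which parts of the 4 target genes were read. Hes and Hey proteins are basic helix-loop-helix repressors, and each sequence covers coding bases of that domain. The sequences are written 5′ to 3′ as given for the array, and the capitals mark the match to ATGNCNGTN, searched on the strand of the gene. A probe is shown because it holds these letters, so their presence in all 4 was fixed by the choice. These letters stood in 1.45% of all 165984 probes of this length as written, and in 2.83% on either strand.
Hes1: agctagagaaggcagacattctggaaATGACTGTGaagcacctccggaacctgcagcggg
Hes5: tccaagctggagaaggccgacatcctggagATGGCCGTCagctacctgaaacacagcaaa
Hey1: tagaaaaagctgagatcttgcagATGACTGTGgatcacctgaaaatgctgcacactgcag
Hey2: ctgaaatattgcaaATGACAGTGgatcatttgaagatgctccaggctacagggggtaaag
On the mouse build mm9 the Hes1 probe lies at chr16:30066265-30066324 on the plus strand, the Hes5 probe at chr4:154335350-154335409 on the plus strand, the Hey1 probe at chr3:8665954-8666013 on the minus strand and the Hey2 probe at chr10:30557281-30557340 on the minus strand. The signal of the Hey1 probe was 206 ± 35.1 in the apical, 207 ± 32.0 in the middle and 105 ± 14.8 in the basal turn (mean ± SD, n = 4). That of the Hey2 probe was 101 ± 22.9, 98.0 ± 15.1 and 74.8 ± 17.8, and that of the Hes1 probe was 203 ± 23.0, 265 ± 45.7 and 257 ± 26.3. The Hes5 probe was not well above background in any turn.

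Between the apical and the basal turn, 5 of the 10 genes were called, against 39.2% of all genes, and all 5 were higher in the apical turn, against 17.6% of all genes called in that direction and 21.6% in the other. They were Jag1, Hey1, Hey2, Notch2 and Notch1, and none of them differed by 2-fold or more, where 4.47% of all genes were called and did. The median of the 10 genes was 0.26 on the log2 scale, beside -0.04 over all genes. Arrays of the apical and basal turns did not overlap for 4 of the 10 genes, all higher in the apical turn, beside 38.3% of all genes and 16.9% in that direction. The genes Jag2, Dll1, Notch3, Hes1 and Hes5 did not pass, although 8 of the 10 genes had an unadjusted p under 0.05. When arrays were scaled to their spike-in control probes in place of the 75th percentile, the median of all genes moved by -0.49, to -0.52, and only Jag1 and Hey1 were then called higher in the apical turn, while Jag2, Notch3, Hes1 and Hes5 were called lower. With scaling to the median of each array, which moved the median of all genes by -0.12, 3 of the 10 were called higher (Jag1, Hey1 and Notch2) and 1, Hes1, lower; with quantile normalization the same 3 were called higher and 2, Notch3 and Hes1, lower. Of all genes, spike-in scaling called 3.97% higher and 73.5% lower in the apical turn. The shares were 11.6% and 32.2% with scaling to the median, and 14.9% and 25.6% with quantile normalization. Scaling to the 75th percentile, the median or the spike-in probes moves all genes of an array alike, so the difference of a gene from the median of all genes is the same under these 3 by construction. Quantile normalization can change it, and with it that difference was 0.94 for Jag1, 0.90 for Hey1, 0.44 for Hey2, 0.35 for Notch2, 0.30 for Notch1, 0.09 for Jag2 and 0.08 for Dll1.

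**Figure D1:**
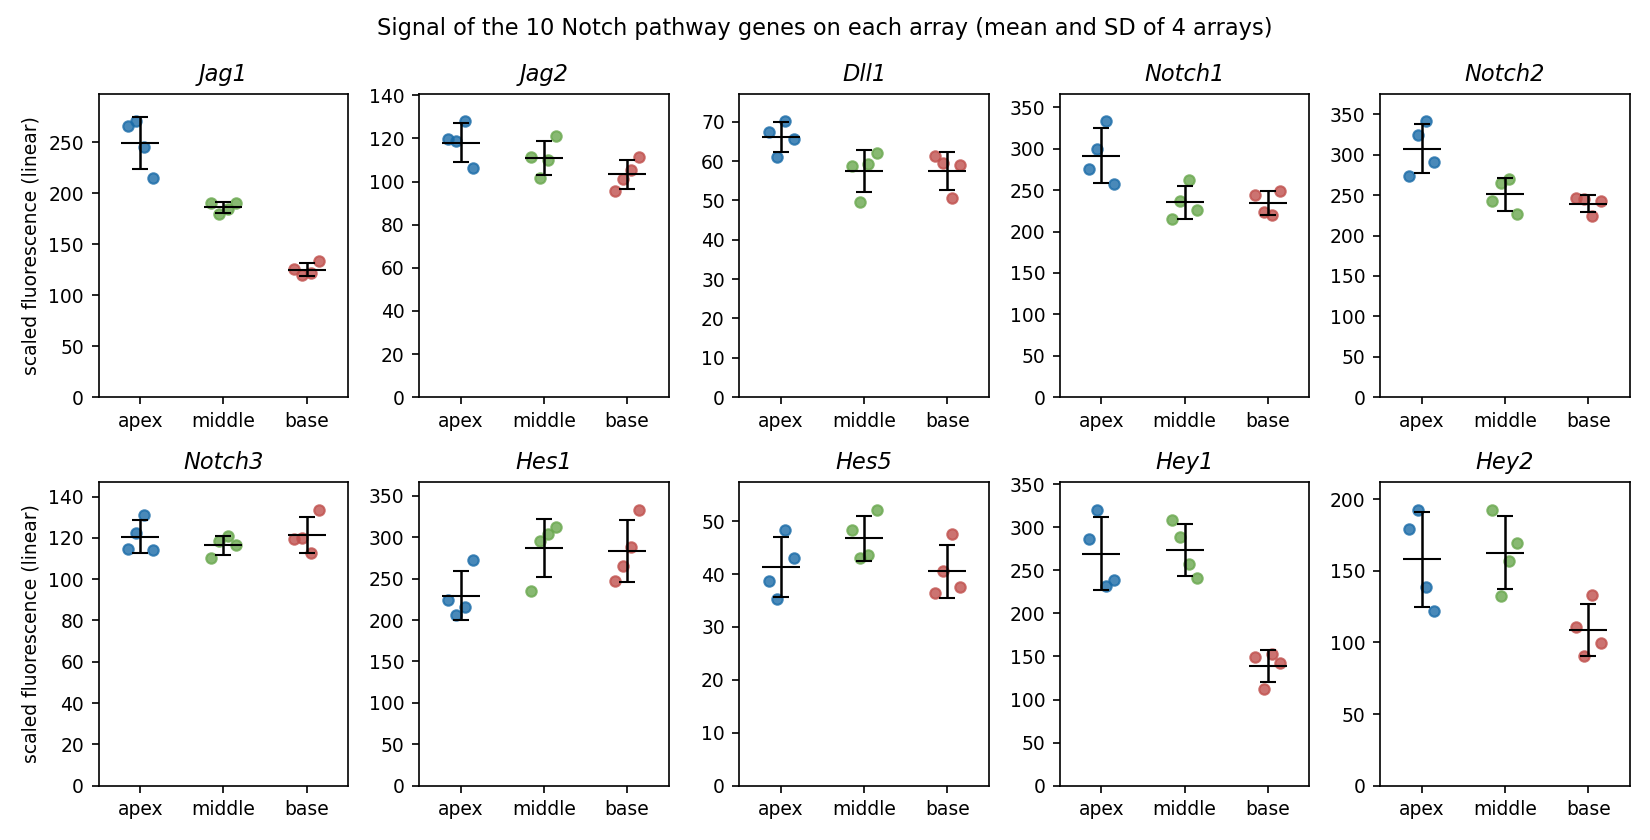
Scaled fluorescence (linear scale, each axis from 0) of the 10 genes on each of the 12 arrays, by cochlear turn; points are arrays, the bar is the mean and the whiskers the SD of 4 arrays. Jag1 lies between 215 and 271 in the apical, 179.7 and 190.5 in the middle and 119.6 and 133 in the basal turn, while Hey1 lies between 231 and 320.4 in the apical and 112 and 153 in the basal turn.

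Among the ligand genes Jag1, Jag2 and Dll1, Jag1 changed most clearly. It is read by 23 probes at chr2:136907433-136942037 (mm9, minus strand). Its signal was 266, 271, 245 and 215 on the 4 apical arrays, 190.3, 179.7, 184 and 190.5 on the middle arrays, and 125, 119.6, 122 and 133 on the basal arrays. All apical arrays were higher than all middle arrays, and all middle arrays were higher than all basal arrays. Jag1 was 1.99-fold higher in the apical than in the basal turn (log2 difference 0.99, SE 0.07, limma adjusted p = 3.3e-06), and the 95% interval was 0.83 to 1.15. Both steps passed the test. The apical turn was higher than the middle turn by 0.42 (SE 0.07, limma adjusted p = 0.0062), and the middle turn was higher than the basal turn by 0.58 (SE 0.07, limma adjusted p = 0.00046). The difference between the apical and basal turns was called under all 25 alternatives. It was 0.68 when probes were averaged on the linear scale, 0.65 with normexp background correction, 0.50 with spike-in scaling and, above 2-fold, 1.04 with the median of probes. With spike-in scaling the difference between the apical and middle turns was 0.20 and was not called (limma adjusted p = 0.087).

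The exon probes of Jag1 did not all move together. From the apical to the basal turn 21 of its 23 probes were called higher in the apical turn, with log2 differences between 0.81 and 1.37, where 18% of all probes were called in that direction (34.4% in either direction). The other 2 probes were not called, and both are well above background in every turn. One is the first probe of the gene, at the 5′ end, with a log2 difference of -0.02 (SE 0.10) and 81.7% G and C, more than any other Jag1 probe. The other is the eighth, shown here between its neighbors, with positions counted from the 5′ end of the gene.
Jag1 probe 7: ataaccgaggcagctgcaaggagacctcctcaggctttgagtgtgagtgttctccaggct
Jag1 probe 8: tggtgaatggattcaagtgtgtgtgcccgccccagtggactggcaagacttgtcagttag
Jag1 probe 9: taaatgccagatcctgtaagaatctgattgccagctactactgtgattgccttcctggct
These probes lie on the minus strand of mm9 at chr2:136920213-136920272, chr2:136918943-136919002 and chr2:136918257-136918316. Probe 8 holds 53.3% G and C, between the 55.0% of probe 7 and the 45% of probe 9. Its signal was 716 ± 32.4 in the apical, 723 ± 80.6 in the middle and 816 ± 109 in the basal turn (mean ± SD, n = 4), a log2 difference between the apical and basal turns of -0.18 (SE 0.10, limma adjusted p = 0.21). The signal of probe 7 was 124 ± 17.1, 84.9 ± 16.5 and 60.4 ± 11.6, and that of probe 9 was 138 ± 26.1, 88.5 ± 7.27 and 57.8 ± 8.83. Both neighbors fell from the apical over the middle to the basal turn, and probe 8 did not. Both uncalled probes enter the mean of the gene. The median of the 23 probes was 1.07.

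The ligand genes Jag2 and Dll1 did not pass the test in any of the 3 comparisons. Jag2, a second Jagged ligand, had signals of 119.6, 119, 128 and 106 on the apical arrays, 112, 102, 109.8 and 121 on the middle arrays, and 95.8, 101, 105 and 111 on the basal arrays. The apical and basal arrays overlapped. The log2 difference between the apical and basal turns was 0.19 (95% interval 0.03 to 0.35, limma adjusted p = 0.064). It was called without apical replicate 4 (0.24, limma adjusted p = 0.024) and without basal replicate 4 (0.23, limma adjusted p = 0.045), and with spike-in scaling it was called in the opposite direction. Dll1, a Delta ligand, measured 67.4, 61.1, 70.2 and 65.7 on the apical arrays, 58.7, 49.7, 59.2 and 62.1 on the middle arrays, and 61.4, 59.5, 50.5 and 59.0 on the basal arrays. One apical array, replicate 2, lay within the range of the basal arrays. The log2 difference between the apical and basal turns was 0.20 (95% interval 0.02 to 0.38, limma adjusted p = 0.081), and without middle replicate 2, which changes only the pooled spread, it was called (limma adjusted p = 0.046). Of the 12 Dll1 probes 8 were well above background in at least 1 turn, and of the 22 Jag2 probes 18 were.

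Among the receptors, Notch1 and Notch2 were higher in the apical turn than in either other turn with the 75th percentile scaling, and Notch3 was not called. Notch1, at chr2:26313570-26359217 (mm9, minus strand), had signals of 276, 300.2, 333 and 257 on the apical arrays, 215, 237, 262 and 226 on the middle arrays, and 245, 224, 219.7 and 249 on the basal arrays. The lowest apical array was above all basal arrays but below the highest middle array. The log2 difference was 0.31 between the apical and basal turns (SE 0.09, limma adjusted p = 0.016) and 0.31 between the apical and middle turns (SE 0.09, limma adjusted p = 0.046), while the middle and basal turns differed by 0.00 (95% interval -0.19 to 0.20). Notch2, at chr3:97817635-97951292 (mm9, plus strand), measured 274, 324, 342 and 291 on the apical arrays, 242, 265, 269.6 and 226 on the middle arrays, and 246, 245, 224 and 243 on the basal arrays. All apical arrays were above all middle and basal arrays, and the middle and basal arrays overlapped. The log2 difference was 0.36 between the apical and basal turns (SE 0.08, limma adjusted p = 0.0047), 0.29 for the apical against the middle turn (SE 0.08, limma adjusted p = 0.040) and 0.06 for the middle against the basal turn (95% interval -0.11 to 0.24).

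With the 75th percentile scaling the higher apical signal showed over the length of both genes: 34 of 36 Notch1 probes and 35 of 35 Notch2 probes were higher in the apical than in the basal turn, of which 19 and 22 were called. Over all probes 18% were called in that direction. The direction rests on the scaling: with spike-in scaling the log2 difference between the apical and basal turns was -0.17 for Notch1 and -0.13 for Notch2, neither of them called. Above the median of all genes, which this scaling moves alike with every gene, they lay by 0.35 and 0.39. Notch1 was also not called with quantile normalization (0.22, limma adjusted p = 0.053) or with scaling to the median (0.20, limma adjusted p = 0.076). The calls between the apical and middle turns depended on single arrays. For Notch1 that call was lost without apical replicate 1, 2 or 3, middle replicate 1, 2 or 4, or any single basal replicate, with log2 differences of 0.24 to 0.33 and limma adjusted p-values of 0.052 to 0.12. For Notch2 it was lost without apical replicate 2 or 3, middle replicate 1, 2 or 4, or basal replicate 1 or 2, with log2 differences of 0.24 to 0.32 and limma adjusted p-values of 0.054 to 0.11.

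Notch3, a receptor known for its role in vascular smooth muscle and pericytes, lies at chr17:32257848-32303779 (mm9, minus strand). It measured 115, 122, 131 and 114 on the apical arrays, 110.2, 118, 121 and 116 on the middle arrays, and 119, 120.1, 112 and 134 on the basal arrays. The 3 turns overlapped, and the log2 difference between the apical and basal turns was -0.01 (95% interval -0.15 to 0.14, limma adjusted p = 0.93). With quantile normalization it was called lower in the apical turn (-0.17, limma adjusted p = 0.035), as it was with spike-in scaling (-0.50, limma adjusted p = 0.0019). Its 33 probes were split, with 18 higher and 15 lower in the apical turn. The 5 called lower in the apical turn had log2 differences of -0.50 to -0.26, where 16.4% of all probes were called in that direction. The 1 called higher, at 0.72 (limma adjusted p = 0.0039), is the second to last toward the 3′ end and measured 159 in the apical, 100.4 in the middle and 97.2 in the basal turn. The summed signal of 6 markers of pericytes and vascular smooth muscle ranged from 2111 to 2316 in the apical, from 2286 to 2699 in the middle and from 3850 to 4458 in the basal turn, and 4 of the 6 were called higher in the basal than in the apical turn. In that direction 21.6% of all genes were called. The part of pericytes and vascular smooth muscle in the Notch3 signal was not tested.

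**Figure D2:**
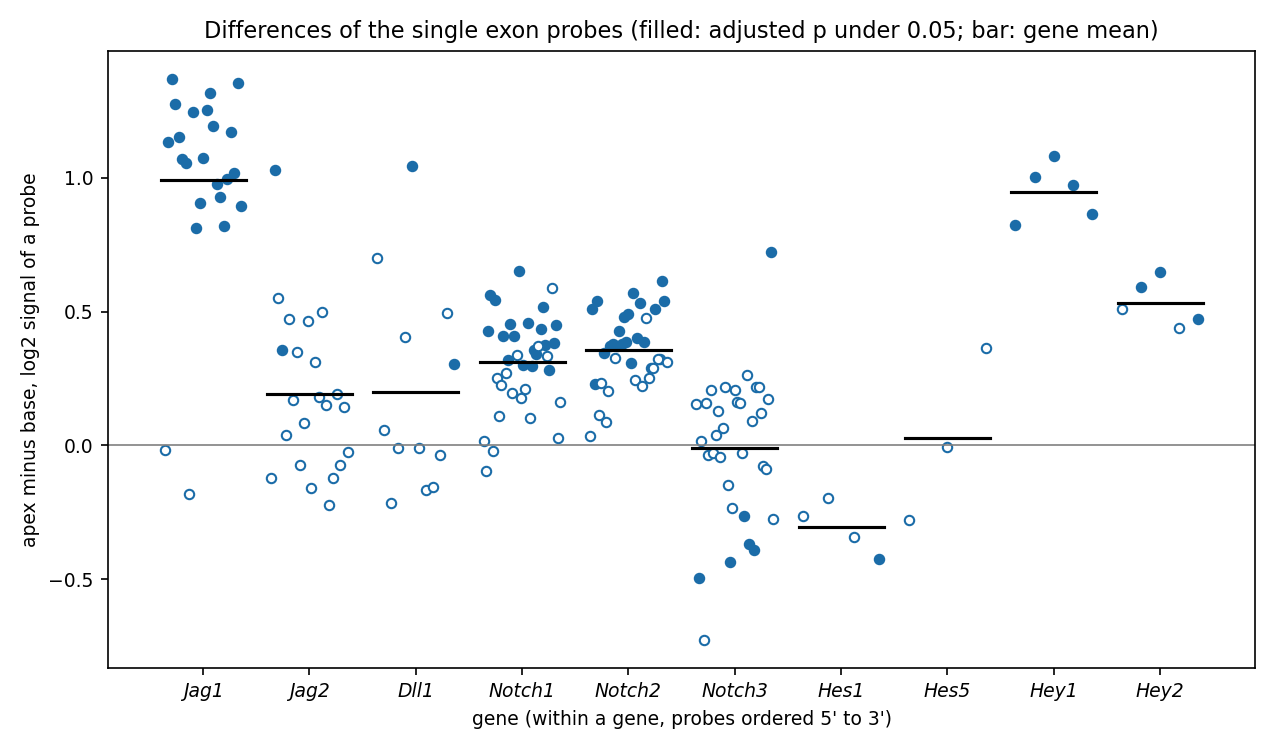
Log2 difference between the apical and basal turns for each of the 178 exon probes of the 10 genes, probes of a gene ordered 5′ to 3′; filled points passed the test with limma and the black bar is the difference of the gene. Of the Jag1 probes 21 lie above 0.8 and 2 lie below 0, the 5 Hey1 probes lie between 0.82 and 1.1, and the 4 Hes1 probes lie below 0; with spike-in scaling the 178 values sit 0.49 lower.

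The 4 target genes did not behave alike. Hey1 and Hey2 were higher in the apical and middle turns than in the basal turn, Hes5 was not called, and Hes1 was lower in the apical turn without passing the test. Hey1, at chr3:8663432-8666853 (mm9, minus strand), measured 287, 320.4, 231 and 238 on the apical arrays, 308, 288, 257 and 241 on the middle arrays, and 149.7, 112, 153 and 142 on the basal arrays. All apical and all middle arrays were above all basal arrays, and the apical and middle arrays overlapped. Hey1 was 1.93-fold higher in the apical than in the basal turn (log2 difference 0.95, SE 0.13, limma adjusted p = 0.00023) and 1.97-fold higher in the middle than in the basal turn (log2 difference 0.98, SE 0.13, limma adjusted p = 0.00070). The apical and middle turns differed by -0.03 (95% interval -0.32 to 0.26). All 5 probes were called higher in the apical than in the basal turn, with log2 differences between 0.82 and 1.1. Both differences from the basal turn were called under all 25 alternatives, and with spike-in scaling they were 0.46 and 0.71.

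Hey2, at chr10:30552729-30562431 (mm9, minus strand), measured 179, 192, 139 and 122 on the apical arrays, 193, 132, 157 and 169 on the middle arrays, and 111, 90.6, 133 and 99.6 on the basal arrays. One basal array, replicate 3, was above the lowest apical and the lowest middle array, so neither turn was clear of the basal turn. The log2 difference was 0.53 between the apical and basal turns (SE 0.17, limma adjusted p = 0.027) and 0.59 between the middle and basal turns (SE 0.17, limma adjusted p = 0.031). The apical and middle turns differed by -0.05 (95% interval -0.43 to 0.32). Over its probes, 5 of 5 were higher in the apical than in the basal turn and 3 were called. The call between the apical and basal turns was lost without apical replicate 1 or 2 or basal replicate 2 or 4, with log2 differences of 0.43 to 0.50 and limma adjusted p-values of 0.069 to 0.081, and with quantile normalization (0.36) or scaling to the median (0.42) or spike-in probes (0.05). The call between the middle and basal turns was lost without middle replicate 1 or 4 or basal replicate 1, 2 or 4, with log2 differences of 0.50 to 0.60 and limma adjusted p-values of 0.056 to 0.093, and with quantile normalization (0.48), spike-in scaling (0.31) or the median of probes (0.58). The median of probes also ended the call between the apical and basal turns (0.51).

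Hes1, at chr16:30065517-30067879 (mm9, plus strand), ran the other way. It measured 224, 206, 215 and 272 on the apical arrays, 235, 295, 304 and 312 on the middle arrays, and 247, 265, 289 and 333 on the basal arrays. Of the apical arrays 3 were below all middle and basal arrays, and replicate 4 lay within their range. The log2 difference was -0.31 between the apical and basal turns (SE 0.12, limma adjusted p = 0.070), -0.32 for the apical against the middle turn (SE 0.12, limma adjusted p = 0.10) and 0.02 for the middle against the basal turn (95% interval -0.25 to 0.28). All 4 probes were lower in the apical than in the basal turn, by -0.43 to -0.19, and 1 of them was called. The difference between the apical and basal turns was called in 9 of 25 alternatives. Among them were those without apical replicate 4 (-0.39, limma adjusted p = 0.025), basal replicate 1 (-0.37, limma adjusted p = 0.046) and middle replicate 1 (-0.31, limma adjusted p = 0.043). It was also called with quantile normalization (-0.40, limma adjusted p = 0.025) and scaling to the median (-0.42, limma adjusted p = 0.017). The same held for spike-in scaling (-0.79, limma adjusted p = 0.00058) and normexp background correction (-0.26, limma adjusted p = 0.040). The difference between the apical and middle turns was called in 3 of 25 alternatives. These were without middle replicate 1 (-0.41, limma adjusted p = 0.049), with spike-in scaling (-0.54, limma adjusted p = 0.019) and with the replicate block.

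Hes5, a classic Notch target of supporting cells during development, lies at chr4:154335099-154336406 (mm9, plus strand) and gave a low signal. It measured 38.7, 35.3, 48.3 and 43.1 on the apical arrays, 48.2, 43.0, 43.5 and 52.2 on the middle arrays, and 36.4, 40.6, 47.6 and 37.6 on the basal arrays. The 3 turns overlapped. The log2 differences were 0.03 between the apical and basal turns (95% interval -0.22 to 0.28), -0.18 for the apical against the middle turn and 0.21 for the middle against the basal turn, and none was called. Of its 3 probes 2 were well above background, and these differed in direction, at -0.28 for the first and 0.36 for the last, neither of them called.

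**Figure D3:**
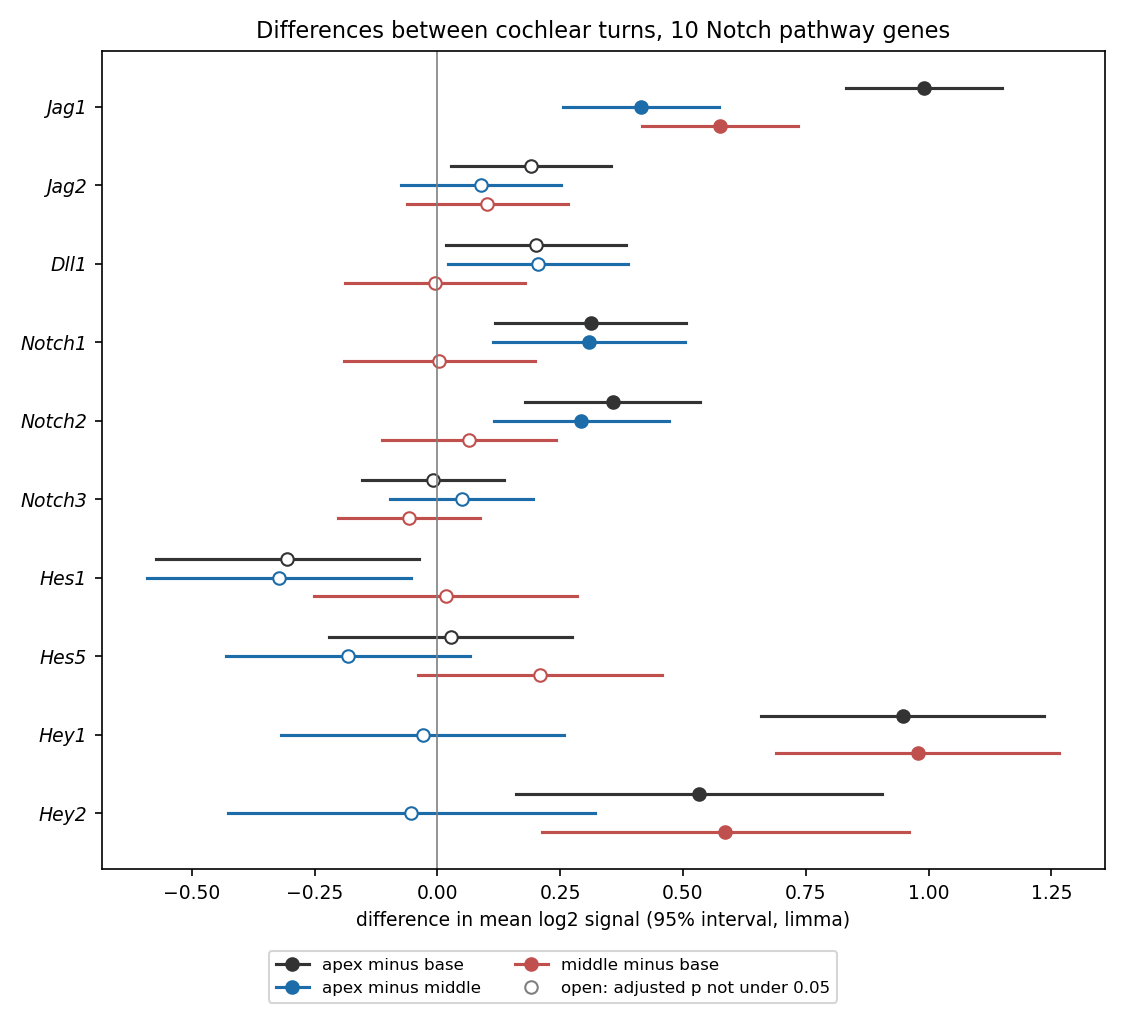
Log2 differences with 95% intervals from limma for the 3 comparisons of turns, gene by gene; filled points passed the test. Jag1 has filled points in all 3 comparisons, and Notch1 and Notch2 in those with the apical turn. Hey1 and Hey2 have them in those with the basal turn. The intervals are not adjusted, and those of Jag2, Dll1 and Hes1 between the apical and basal turns also exclude 0. Between the apical and middle turns those of Dll1 and Hes1 do so too. With spike-in scaling Notch1 and Notch2 fall below 0 between the apical and basal turns.

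Comparing neighboring turns, 3 of the 10 genes were called between the apical and middle turns, against 12% of all genes, and these were Jag1, Notch1 and Notch2. Between the middle and basal turns 3 were called, against 20.9% of all genes, and these were Jag1, Hey1 and Hey2. All these genes were higher in the turn nearer the apex, where 4.42% and 11.6% of all genes were called in that direction. None was called with a difference of 2-fold or more, as 0.390% and 2.66% of all genes were. The medians of the 10 genes were 0.07 and 0.08, beside -0.07 and 0.04 over all genes. Arrays did not overlap for 2 genes in each of these comparisons, beside 20.8% and 24.1% of all genes (7.30% and 12.5% in the direction of these genes). The 3 comparisons share their arrays 2 by 2, and whether one step was larger than the other within a gene was not tested. In order of level, Jag1 fell from the apical over the middle to the basal turn. For Notch1 and Notch2 the apical turn came first, and the middle and basal turns did not differ beyond their spread. For Hey1 and Hey2 the basal turn came last, and the apical and middle turns did not differ beyond their spread.

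**Figure D4:**
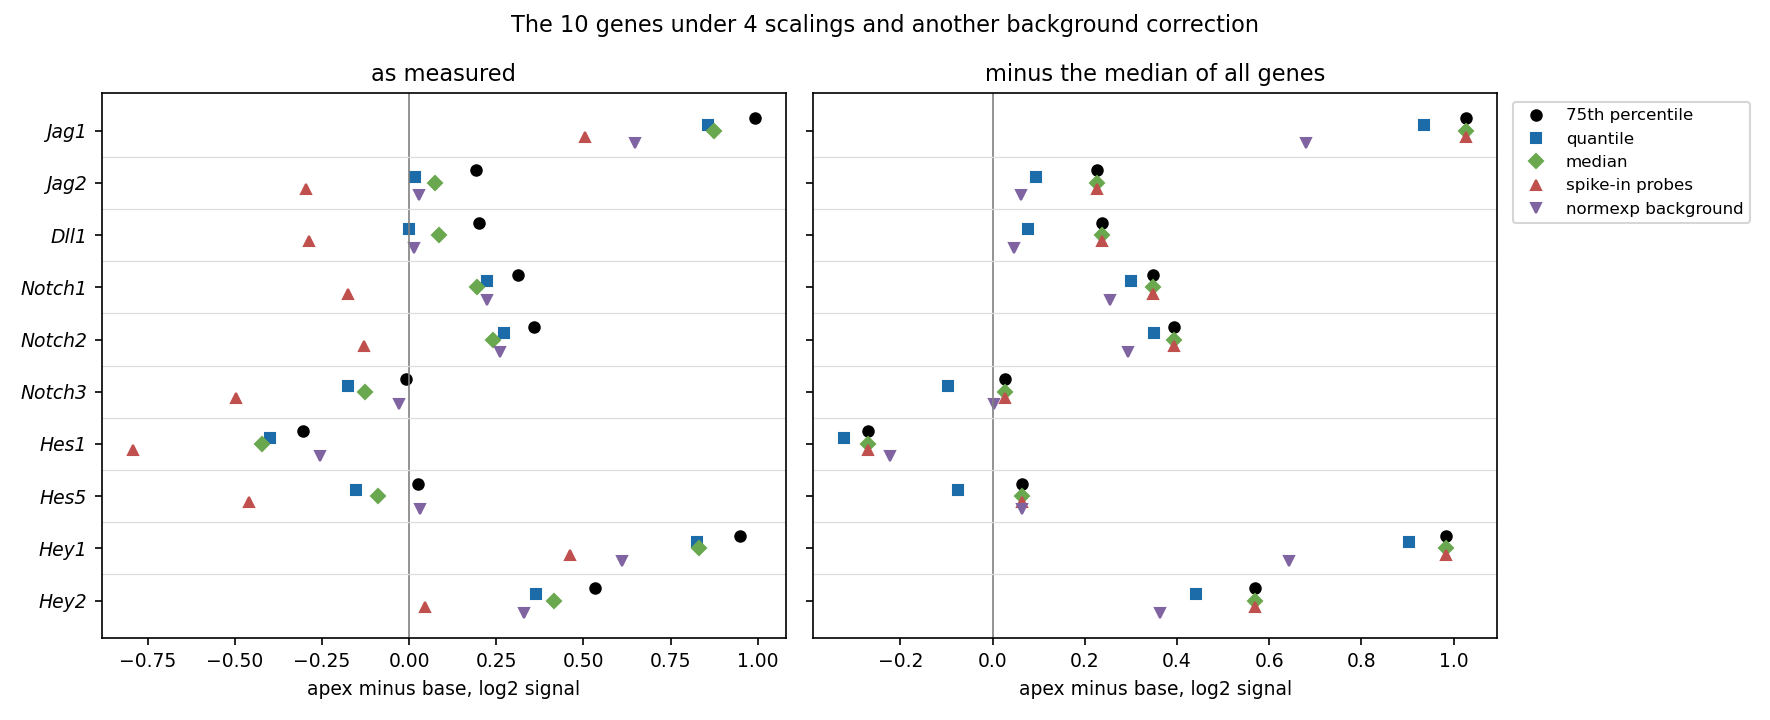
Log2 difference between the apical and basal turns for the 10 genes under 4 scalings of the arrays and another background correction, as measured at left and minus the median of all genes at right. Jag1 and Hey1 stay above 0 under all of them, Notch1 and Notch2 fall to -0.17 and -0.13 with spike-in scaling, and at right 7 genes (these 4, Hey2, Jag2 and Dll1) lie above 0 throughout, where the 75th percentile, median and spike-in scalings agree by construction.

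Cell type markers moved along the turns as well. Of all genes, 17.6% were called higher and 21.6% lower in the apical than in the basal turn. Marker calls under the other scalings were not computed. The summed signal of 6 hair cell markers ranged from 1056 to 1298 in the apical, 878 to 938 in the middle and 399 to 496 in the basal turn, with 5 of 6 called higher in the apical than in the basal turn and Atoh1 not well above background. The summed signal of 6 supporting cell markers ranged from 2083 to 2663, 1112 to 1349 and 672 to 865 in the same order. Sums run over probes of unequal brightness, and Tectb, a tectorial membrane protein, made most of the gap between the apical and middle sums, with means of 1017, 42.8 and 41.9. Of the other 5 supporting cell genes only Otog was called between the apical and middle turns (0.62, limma adjusted p = 0.011). Of all 6 supporting cell markers 5 were called higher in the apical than in the basal turn. Among them was Sox2, a transcription factor of supporting cells, by 1.67. Lgr5, a receptor of supporting cells, differed by -0.08 between these turns and was not called. Neuron markers summed to 22938 to 29939, 20795 to 37063 and 4282 to 19039, and all 6 were called higher in the apical than in the basal turn. The 6 endothelial markers summed to 1094 to 1145, 1072 to 1222 and 1180 to 1317, with 1 called higher and 3 called lower in the apical turn. The part of these cell types in the differences of Jag1, Hey1, Hey2, Notch1 and Notch2 was not tested.

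The genes whose signal ran most like each called gene over the 12 arrays were found among 16008 genes with a probe well above background on every array. Arrays of a turn share their slide, so these Pearson correlations follow the turns. For Jag1 they were Trim45 (r = 0.988), Pls1 (r = 0.987), an actin bundling protein of hair cell stereocilia, and Tubb2b (r = 0.985), a tubulin. For Hey1 they included Sox2 (r = 0.972) and Acbd7 (r = 0.967). For Hey2 they were Mfn2 (r = 0.941), Zdhhc3 (r = 0.929) and Ube3b (r = 0.926), for Notch1 Yeats2 (r = 0.969), Wbp7 (r = 0.964) and Zfp369 (r = 0.964), and for Notch2 Cdk13 (r = 0.976), Trrap (r = 0.966) and Anapc1 (r = 0.963).

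The rest of the pathway was read through 62 other genes, listed by role, and 27 of them were called between the apical and basal turns, which is 43.5% of the list beside 39.2% of all genes. They were split, with 14 higher and 13 lower in the apical turn, and their median was -0.03. With quantile normalization the split was 12 higher and 18 lower, with scaling to the median 6 and 25, and with spike-in scaling 1 and 46. Of all genes, quantile normalization called 14.9% higher and 25.6% lower, and scaling to the median 11.6% and 32.2%. Spike-in scaling called 3.97% of all genes higher and 73.5% lower. In the comparison of the apical with the middle turn 7 were called, which is 11.3% beside 12% of all genes, and all were higher in the apical turn. In that of the middle with the basal turn 9 were called, which is 14.5% beside 20.9% of all genes, with 3 higher and 6 lower in the middle turn. Against the middle turn the apical turn had 3 higher and 4 lower genes with scaling to the median, and 0 and 18 with spike-in scaling. Over all genes these shares were 3.39% and 14.8% with the median, and 1.09% and 39.6% with the spike-in probes. Against the basal turn the middle turn had 2 higher and 12 lower with scaling to the median, and 1 and 29 with spike-in scaling. Here the shares over all genes were 9.05% and 14.7% with the median, and 3.87% and 33.7% with the spike-in probes.

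The only other pathway gene called with a difference of 2-fold or more was Dner, listed here as a ligand. Dner is a neuronal membrane protein of the Delta and Notch-like family. It measured 424, 358, 369 and 366 on the apical arrays, 481, 310.2, 332 and 298 on the middle arrays, and 124, 86.2, 262 and 108 on the basal arrays. All basal arrays were below all others, and basal replicate 3 stood apart from the other 3. The log2 difference was 1.52 between the apical and basal turns (SE 0.29, limma adjusted p = 0.0016) and 1.41 between the middle and basal turns (SE 0.29, limma adjusted p = 0.0070). The neuron marker Nefl, a neurofilament, measured 4065, 1835, 9099 and 3098 on the same basal arrays, with replicate 3 again the highest, and its part in the Dner signal was not tested. The endothelial ligand Dll4 measured 25.5 ± 4.91, 25.9 ± 5.01 and 27.5 ± 5.02 in the apical, middle and basal turns and was not called, with 5 of 10 probes well above background. Notch4, the endothelial receptor, measured 144 ± 7.08, 144 ± 14.1 and 146 ± 9.14 (mean ± SD, n = 4), and Lfng, a glycosyltransferase that modifies Notch receptors, 72.8 ± 3.62, 70.9 ± 9.68 and 68.8 ± 15.1. Neither was called. None of the 5 glycosyltransferase genes was called by limma between the apical and basal turns, and none had an unadjusted p under 0.05.

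Of 9 genes of the nuclear complex that carries the Notch signal, 5 were called higher and 2 lower in the apical than in the basal turn, beside 17.6% and 21.6% of all genes. Rbpj, the DNA-binding partner of the freed receptor, measured 487, 476, 423 and 425 on the apical arrays, 389, 396, 391 and 348 on the middle arrays, and 333, 335, 338 and 326 on the basal arrays. The 3 turns did not overlap. Its log2 difference was 0.44 between the apical and basal turns (SE 0.06, limma adjusted p = 0.00027) with the 75th percentile scaling and -0.05, not called, with spike-in scaling. Both steps were called as well, from the apical to the middle turn (0.25, limma adjusted p = 0.028) and from the middle to the basal turn (0.19, limma adjusted p = 0.048). The first of these calls was lost without apical replicate 1 or 2 or middle replicate 4 (0.20 to 0.22), and the second without any one middle replicate among 1, 2 and 3, any one basal replicate, or apical replicate 2 (0.17 to 0.20). Maml3, a Mastermind coactivator, was higher by 0.66 (SE 0.07, limma adjusted p = 5.3e-05), and Kat2b, a histone acetyltransferase, was lower by -0.32 (limma adjusted p = 0.0028).

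Among 10 genes for the proteases that cleave Notch receptors, 6 were called lower in the apical than in the basal turn, where 21.6% of all genes were, and 1, Adam10, was called higher, where 17.6% were. Ncstn, another gamma-secretase gene, was not called (0.12, limma adjusted p = 0.092). Apart from Furin, the lower genes were 5 of the gamma-secretase complex, which makes the final cut of the receptor: Psenen, Aph1a, Aph1b, Aph1c and Psen2. Psenen differed by -0.43 (limma adjusted p = 0.00031), Aph1b by -0.36 (limma adjusted p = 0.00058) and Aph1c by -0.30 (limma adjusted p = 0.0053). Furin, which cuts the receptor on its way to the surface, differed by -0.37 (limma adjusted p = 0.00086). Adam10, Aph1a, Psen2 and Ncstn were named after their values were seen. With spike-in scaling Adam10 moved, as all genes did, by -0.49, to below 0.

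Other regulators were mixed. Of all genes 17.6% were called higher and 21.6% lower in the apical than in the basal turn. Among 10 corepressor genes 2 were called higher in the apical turn, Hdac2 by 0.35 (limma adjusted p = 0.000525) and Tle2 by 0.32 (limma adjusted p = 0.032), and 3 were called lower; with spike-in scaling Hdac2 and Tle2 were at -0.14 and -0.17. The Tle2 call was lost without apical replicate 2 or 3 or basal replicate 1, 2 or 3, with log2 differences of 0.28 to 0.31. Among 12 genes of receptor turnover and inhibition 4 were called higher, among them the ubiquitin ligase genes Dtx4 (0.34, limma adjusted p = 0.0047) and Fbxw7 (0.34, limma adjusted p = 0.013), both of which fell to -0.15 with spike-in scaling, and 1 was called lower, Dtx2 (-0.35, limma adjusted p = 0.00039). Among the 6 other bHLH repressor genes, Hes6, a member of the Hes family that acts on Hes1, was lower in the apical turn. It measured 314, 340.1, 314 and 330.4 on the apical, 345, 357, 396 and 437 on the middle and 396, 432, 440.0 and 469 on the basal arrays. The apical and basal arrays did not overlap, and the log2 difference was -0.42 (SE 0.08, limma adjusted p = 0.0016). Heyl, the closest relative of Hey1 and Hey2 on the list, measured 371 ± 51.6, 357 ± 23.0 and 330.4 ± 3.52 (mean ± SD, n = 4) and was not called.

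**Figure D5:**
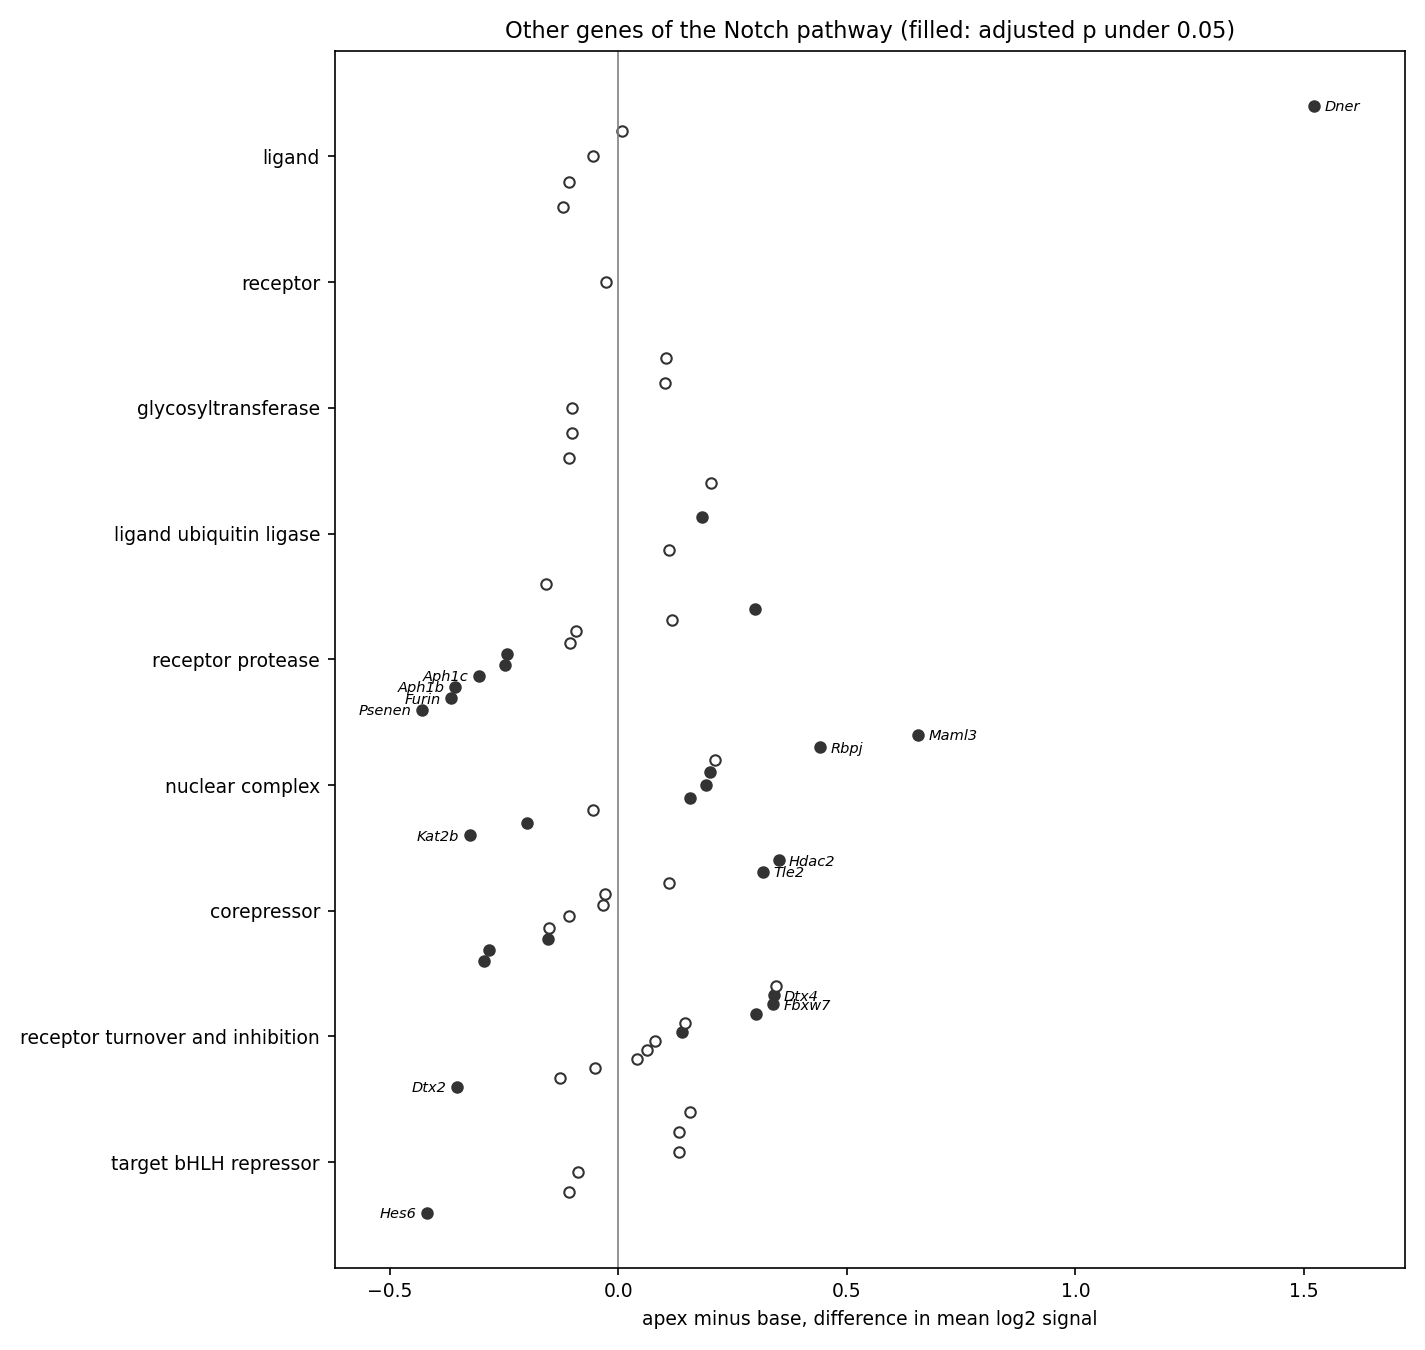
Log2 difference between the apical and basal turns for 62 other Notch pathway genes, grouped by role on the vertical axis; filled points passed the test with limma, and names are given for called genes that the text describes. Dner lies at 1.52, Maml3 and Rbpj at 0.66 and 0.44, and most called protease genes lie below 0; with spike-in scaling the 62 values sit 0.49 lower and Rbpj falls below 0.

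RBPJ binds a short DNA motif, and the bases before the start of the 10 genes were searched for its letters GTGGGAA and their reverse complement TTCCCAC. RefSeq promoters on GRCm38.p6 were at hand for 8 of the 10 genes, without Hes1 and Hey1. In the 250 bases before the start, 2 of these 8 genes, Hes5 and Hey2, held the motif, as did 5.42% of 32851 mouse promoters of the same length. Both are shown because Hey2 was called between turns and Hes5 was not, and capitals mark the motif.
Hes5: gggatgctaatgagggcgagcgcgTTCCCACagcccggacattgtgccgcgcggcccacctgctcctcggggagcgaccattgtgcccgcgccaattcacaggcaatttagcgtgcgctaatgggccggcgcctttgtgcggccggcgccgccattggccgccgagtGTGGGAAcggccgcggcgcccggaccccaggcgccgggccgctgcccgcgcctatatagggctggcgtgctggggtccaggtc
Hey2: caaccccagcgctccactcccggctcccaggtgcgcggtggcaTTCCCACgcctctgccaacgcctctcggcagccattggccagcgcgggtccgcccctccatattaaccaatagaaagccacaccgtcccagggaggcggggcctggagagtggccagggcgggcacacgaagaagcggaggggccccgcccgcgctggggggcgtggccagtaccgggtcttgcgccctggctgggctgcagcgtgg
The Hes5 sequence, chr4:154960673-154960922 on the plus strand, holds 2 matches that begin 226 and 83 bases before the start, in opposite directions. The Hey2 sequence, chr10:30842784-30843033 on the minus strand, holds 1 that begins 207 bases before it. A match in letters is not a bound site, and a window without one says only that these letters are not in it.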

How the data were processed

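Samples were 12 RNA extracts from 4 male C57BL/6 mice, 4 each from the apical, middle and basal cochlear turn, and were grouped by their labels. Per the labels, 25 ng of total RNA was labeled with Cy3 by a whole transcriptome kit and hybridized to Agilent exon arrays. The authors extracted the deposited fluorescence intensities with Agilent Feature Extraction 10.7.3.1, and the probe positions are on mm9. The deposited intensity used was the processed signal, which that software had background-subtracted. It was scaled to the 75th percentile of each array, as in the methods, and log2 transformed. Of 165984 probes, 119 with flagged spots were left out. Repeated spots were averaged, and a gene is the mean of its probes by gene name.

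Turns were compared with limma 3.58.1 in R 4.3.3, fitted to all 12 arrays and 19505 genes, and for single probes to all 165865 probes, with a threshold of 0.05 on Benjamini-Hochberg adjusted p. The code was tested on simulated data. Besides the 10 genes, the text names 6 pathway genes chosen whatever their values (Notch4, Dll4, Lfng, Rbpj, Heyl and Hes6), the 14 other pathway genes with the largest called difference, and the 3 genes most like each called gene, of which 1 is not reported here. The genes, lists and tests were chosen with earlier results of these data known. Nefl, Lgr5, Sox2, Tectb, Otog and 4 protease genes were named after their values were seen. Of 63 listed pathway genes, Kdm5a was not analysed here, nor was the Schwann cell marker Sox10. The deposited value table held the same intensities. Alternatives covered scaling, background, pseudocount, filters, probe summary, the fit and each array left out. The number of arrays limits the precision.

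Marker lists not described with the results follow. Of all genes, 17.6% were called higher and 21.6% lower in the apical than in the basal turn. Of 5 Schwann cell markers, 5 were called higher in the apical than in the basal turn. Called lower were 3 of 4 strial marginal cell, 4 of 5 strial intermediate cell, 3 of 4 spiral ligament fibrocyte, 1 of 5 bone cell and 4 of 4 macrophage markers, and 0 of 4 erythroid markers were called by limma, with 1 at an unadjusted p under 0.05.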

Additional observations from a re-analysis of the deposited data

Results flagged for a closer look

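Of the 30 sets of 4 arrays (10 genes in 3 turns), 1 held an array far from the others. For Notch2 in the basal turn, replicate 3 measured 224 and the nearest other array 243, and this gap was 0.858 of the whole range of the 4 arrays, beyond Dixon's 95% critical value. By chance about 1 in 20 such sets holds an array of this kind. Without basal replicate 3 the difference of Notch2 between the apical and basal turns was still called by limma (0.32, adjusted p = 0.014).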

How the results depend on the processing

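Jag1 and Hey1 kept their call against the basal turn, both for the apical and for the middle turn, under all 25 alternatives, 12 of which left out 1 array. For the apical against the basal turn, Notch2 was called in 24 of 25, Notch1 in 21 and Hey2 in 17. Of the values not called, 59 of 475 changed sign.

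The 10 genes called between the apical and middle turns fell from 3 to 1 with quantile normalization, scaling to the median, only the arrays of the compared turns or the median of probes. The other pathway genes called there were 18 with spike-in scaling, 3 with only the arrays of the compared turns and 2 with the median of probes. The shares of all genes called with only the arrays of the compared turns and with the median of probes were not computed. The other pathway genes called between the apical and basal turns were 47 with spike-in scaling, and between the middle and basal turns 14 with scaling to the median and 30 with spike-in scaling. With a difference of 2-fold added to the adjusted p, 0 of the 10 genes were called in any comparison. Of the other pathway genes 1, 0 and 1 were called (apical with basal, apical with middle, middle with basal). Over all genes 4.47%, 0.390% and 2.66% were called by this rule. The one-way analysis of variance of the methods with 2-fold gave the same counts of genes, 0 of the 10 genes, and 1, 0 and 1 of the others. These counts are lower because the rule asks for more.

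Of the values called either with the 75th percentile or under the alternative, those that reversed did so with spike-in scaling. Between the apical and basal turns the log2 differences became -0.30 for Jag2, -0.17 for Notch1, -0.13 for Notch2, -0.46 for Hes5, -0.38 for Lfng, -0.046 for Rbpj, -0.33 for Heyl, -0.17 for Tle2, -0.14 for Hdac2, -0.15 for Dtx4 and -0.15 for Fbxw7, and between the middle and basal turns -0.078 for Rbpj; the cause was not tested. Values called in neither setting also changed sign, among them, between the apical and basal turns, Hes5 with quantile normalization (-0.15) and scaling to the median (-0.09), and Dll1 with spike-in scaling (-0.29). This scaling moved the median of all genes by -0.49, -0.22 and -0.27 in the 3 comparisons. With it 3.97% of all genes were called higher and 73.5% lower in the apical than in the basal turn, and with scaling to the median 11.6% and 32.2%, where the 75th percentile gave 17.6% and 21.6%.

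With 1 array left out, the genes called of the 10 were between 4 and 7 (apical with basal), between 1 and 3 (apical with middle) and between 2 and 3 (middle with basal). The other pathway genes were between 20 and 27, between 2 and 9 and between 6 and 11, and the probes between 58 and 83. Between the apical and middle turns the lowest count of other genes, 2, came without apical replicate 2, and 3, 4 and 3 came without apical replicate 1, middle replicate 2 and middle replicate 4; 1 of the 10 genes was called without apical replicate 2 or 3, middle replicate 2 or 4, or basal replicate 1 or 2.

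Sample numbers are shared between turns, but the labels do not say that a number marks a mouse. The deviations of same-numbered arrays correlated by 0.09 on average over 12 pairs, from -0.04 to 0.23, and those of differently numbered arrays by -0.03 over 36 pairs. Of 12 arrays, 8 correlated best with an array of their own number, which 2 of the 8 arrays of the other turns carry. With the replicate block, the other pathway genes called between the apical and middle turns rose from 7 to 11, those between the apical and basal turns from 27 to 31, and the 10 genes gave 6 (5 higher and 1 lower in the apical turn), 3 (2 higher and 1 lower) and 3 calls. The share of all genes called with the block was not computed, so whether these genes rose more than all genes is not known. The block lost Notch1 between the apical and middle turns (adjusted p = 0.053) and called Hes1 lower in the apical turn than in the basal (adjusted p = 0.015) and the middle turn (adjusted p = 0.030).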
